A study of Homo sapiens with 4 samples.

Results

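The 9 matrix metalloproteinase (MMP) genes described here were the collagenases MMP1 and MMP13, the stromelysins MMP3 and MMP10, the matrilysin MMP7, the elastase MMP12, the gelatinases MMP2 and MMP9 and the membrane-type enzyme MMP14, of 20090 protein-coding genes examined. They were chosen by name, and every accessible region in each gene or within 100 kb of its start was collected. The windows held 42 accessible regions. The 6 genes on chromosome 11 (MMP7, MMP10, MMP1, MMP3, MMP12 and MMP13) lie in the 11q22 cluster and were treated as 1 locus, which added 1 region between windows, so that 43 of 60886 regions are described.

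The assay was ATAC-seq. It uses a transposase that cuts exposed chromatin and tags the cut ends, and a peak is an interval where cuts pile up, read as accessible DNA. There were 2 libraries of parental MCF10A, an immortalized and nontransformed human mammary epithelial cell line, and 2 libraries of the same line carrying HRAS with the G12V change (labelled H-RAS Gv12, here G12V). The oncogene was delivered by lentivirus together with a GFP vector, and the cells were selected with hygromycin. The parental cells are not described as having received an empty vector, so transduction and selection cannot be told apart from HRAS itself. All cells grew in the same medium with epidermal growth factor, cholera toxin, insulin, hydrocortisone and horse serum.

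MMPs are zinc-dependent proteases that cut the extracellular matrix and are made as inactive precursors. Many of their genes are known targets of AP-1, a dimer of FOS and JUN proteins that acts downstream of RAS and growth factor signalling. AP-1 binds the sequence TGACTCA, which reads TGAGTCA on the other strand. These are background facts, and a match to the sequence below is a description of the DNA and not evidence of binding.

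The AP-1 sequence stood in the 250 bases upstream of the gene start in 7 of the 9 genes, against 674 of all 20090 protein-coding genes (3.36%). It was found at 5 of the 6 genes of the 11q22 locus. MMP10 and MMP14 had no match in that stretch. The sites are printed below because they lie close upstream of each annotated gene start, next to the question of whether that promoter was accessible. Each is read along the strand of its gene on hg19 with the motif in capitals.
MMP1, chr11:102668944-102668974, minus strand: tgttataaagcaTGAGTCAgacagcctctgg
MMP13, chr11:102826494-102826524, minus strand: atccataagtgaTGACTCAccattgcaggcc
MMP3, chr11:102714392-102714422, minus strand: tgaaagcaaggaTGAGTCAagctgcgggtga
MMP7, chr11:102401527-102401557, minus strand: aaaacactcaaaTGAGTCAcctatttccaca
MMP12, chr11:102745772-102745802, minus strand: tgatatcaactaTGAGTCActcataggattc
MMP9, chr20:44637456-44637486, plus strand: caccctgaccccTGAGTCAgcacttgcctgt
MMP2, chr16:55423425-55423455, plus strand: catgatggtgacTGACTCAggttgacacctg

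The motif began 51 bases upstream of the gene start in MMP13, 64 in MMP7, 70 in MMP3, 71 in MMP1, 78 in MMP12 and 79 in MMP9. In these 6 genes it thus lay at a similar distance. In MMP2 it lay 175 bases upstream of an annotated start that is itself 89130 bp upstream of the next MMP2 transcript start, and no match stood in the 250 bases upstream of any of the other MMP2 starts.

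Accessible promoters were rare among these genes. A promoter here spans 1000 bp before and 500 bp after the gene start. MCF10A replicate 1 and G12V replicate 1 had a peak at 0 of the 9 promoters, and MCF10A replicate 2 and G12V replicate 2 at 2 each. Over all protein-coding genes the share with a promoter peak was 20.4% in MCF10A replicate 1, 41.1% in MCF10A replicate 2, 22.2% in G12V replicate 1 and 43.8% in G12V replicate 2. The mean was 1 ± 1.41 promoters in each cell type (SD, n = 2), a difference of 0 (exact permutation test over libraries, two-sided, p = 1). With 2 libraries on each side this exact permutation test cannot go below p = 0.333. The lists differed in length by replicate, with 12888 and 14042 peaks in the replicate 1 libraries of MCF10A and G12V and 34463 and 46673 in the replicate 2 libraries, and every promoter peak of an MMP member was in a replicate 2 library.

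MMP10, a stromelysin with a broad range of matrix substrates, had a promoter peak in both cell types. The region at chr11:102651264-102651833 overlapped the gene start and coding exon. Its MACS score, which grows with the caller's confidence as 10 times −log10 of p, was 72.9 in MCF10A replicate 2 (percentile 51 of that list) and 99 in G12V replicate 2 (percentile 66.1), with no peak in the replicate 1 libraries. These were the highest scores at a member's promoter, and the region held no AP-1 match.

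MMP7, a small protease made mainly by epithelia, had a promoter peak in MCF10A replicate 2 alone, at chr11:102401319-102401592 with a score of 72.4 (percentile 50.6). The peak covered the gene start and the AP-1 site printed above for MMP7. It was the only promoter site of the 7 that lay inside a peak, and no G12V library had a peak there.

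MMP14, which sits in the cell membrane and activates the MMP2 precursor, had a promoter peak in G12V replicate 2 alone. That peak, at chr14:23305537-23306123, scored 43.8 (percentile 9.7), close to the minimum score of 40 in the lists. MCF10A replicate 2 had a separate peak 740 bp downstream of the gene start, at chr14:23306509-23307241, with a score of 53.2 (percentile 24.7). It covered another annotated MMP14 start. With every annotated transcript start counted, or with 2000 bp on each side, MMP14 therefore had a promoter peak in replicate 2 of both cell types.

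Taken at the gene start, the promoters of MMP1, MMP3, MMP12, MMP13, MMP2 and MMP9 had no peak in any library. Each has an AP-1 match upstream of that start. The 8 annotated MMP2 starts were all without a promoter peak. MMP1, an interstitial collagenase, had a peak inside the gene in G12V replicate 2 at chr11:102665231-102665522, with a score of 52.9 (percentile 28.1). It lay in an intron, 37 bp from an internal transcript start, and counted as an MMP1 promoter peak when every annotated transcript start was used. Absence of a peak here means that no interval passed the caller's threshold at the depth of that library.

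**Figure D1:**
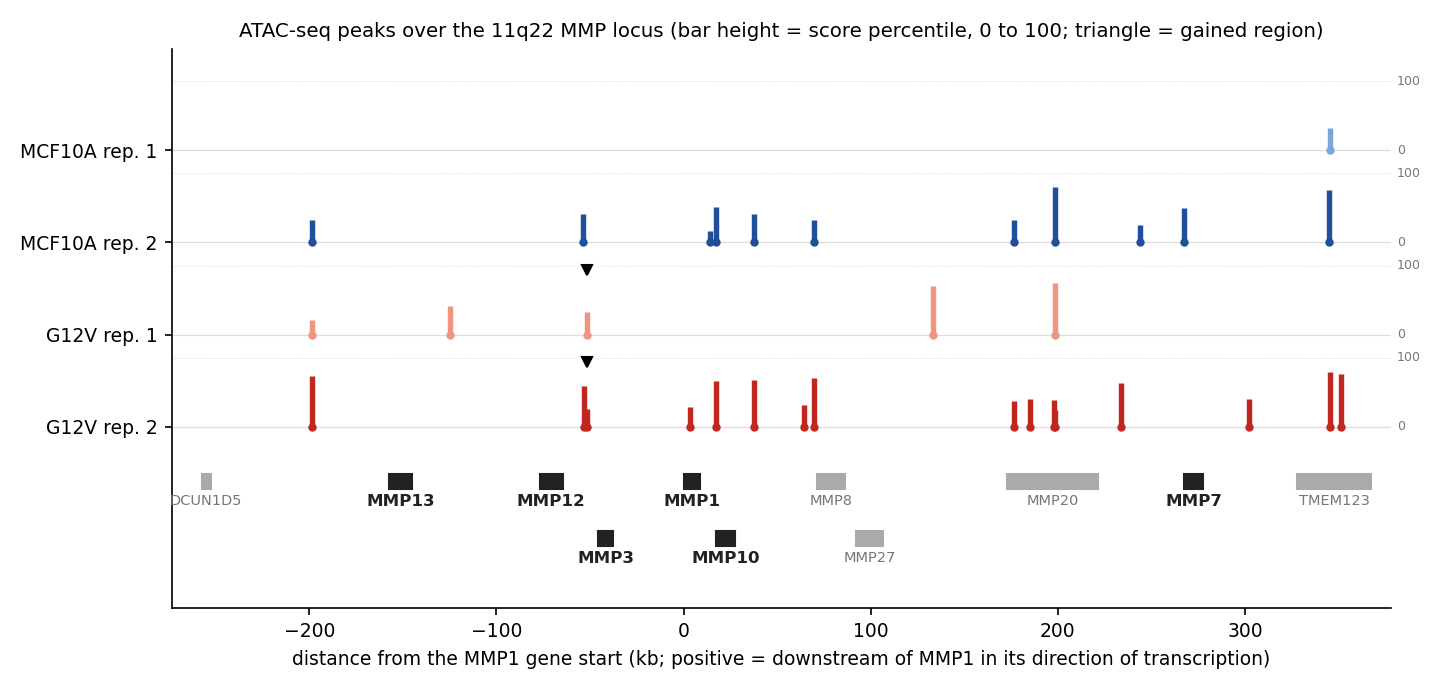
Peaks over the 11q22 locus in each library, with distance from the MMP1 gene start in kb on the horizontal axis, the score percentile of each peak (0 to 100) as bar height, members in black and other genes in grey, and triangles above the gained region. MCF10A replicate 1 has 1 peak, G12V replicate 1 has 5, and most peaks of MCF10A replicate 2 have a counterpart in G12V replicate 2.

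The 11q22 locus, chr11:102301481-102926461, spans 625 kb and held 20 regions, of which 17 were distal and 3 were at promoters (MMP7, MMP10 and the neighbouring collagenase gene MMP8). It had 1 peak in MCF10A replicate 1, 11 in MCF10A replicate 2, 5 in G12V replicate 1 and 16 in G12V replicate 2. The cell types overlapped, since MCF10A replicate 2 had more peaks than G12V replicate 1. The means were 10.5 ± 7.78 in G12V and 6 ± 7.07 in MCF10A (SD, n = 2), a difference of 4.5 (exact permutation test, two-sided, p = 0.667). That difference was smaller than the SD of either cell type.

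Scaled to list length, the locus had 0.0776 peaks per 1000 in MCF10A replicate 1, 0.319 in MCF10A replicate 2, 0.356 in G12V replicate 1 and 0.343 in G12V replicate 2. On this scale the last 3 libraries were close and MCF10A replicate 1, with a single peak, stood below them. With each list reduced to its 12888 best peaks, the locus had 1, 2, 5 and 3 peaks in the same order, and both G12V libraries then lay above both MCF10A libraries. The smallest p for 2 libraries against 2 is 0.333, so no such order can pass 0.05.

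MMP2, MMP9 and MMP14 lie on chromosomes 16, 20 and 14. Their windows together had 2 peaks in MCF10A replicate 1, 14 in MCF10A replicate 2, 4 in G12V replicate 1 and 20 in G12V replicate 2. The means were 12 ± 11.3 in G12V and 8 ± 8.49 in MCF10A (SD, n = 2), a difference of 4 (exact permutation test, two-sided, p = 0.667). Again the difference was smaller than either SD. Per 1000 peaks the values were 0.155, 0.406, 0.285 and 0.429, which ordered the libraries by replicate number and not by cell type. With 12888 peaks per list the windows had 2, 5, 4 and 1 peaks, and the mean was then lower in G12V by 1 peak.

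Over all 9 windows the counts were 3, 25, 8 and 36 peaks in the same order. G12V had 22 ± 19.8 and MCF10A 14 ± 15.6 (SD, n = 2), a difference of 8 (exact permutation test, two-sided, p = 0.667). Here too the difference was smaller than either SD. Leaving out MCF10A replicate 1 or G12V replicate 2 turned the direction, to -3 and -6.

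Between genes, the windows ranged from 2 regions at MMP13 to 11 at MMP14, against a median of 6 (quartiles 3 and 8) over all protein-coding genes. The MMP14 window had 1 peak in MCF10A replicate 1, 7 in MCF10A replicate 2, 2 in G12V replicate 1 and 9 in G12V replicate 2. MMP7 followed with 9 regions and 1, 5, 1 and 8 peaks. MMP1 and MMP10 had the same 8 regions, since their starts are 17532 bp apart, with 0, 5, 1 and 7 peaks.

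MMP3 and MMP2 each had 7 regions. The MMP3 window had 0, 4, 2 and 5 peaks and the MMP2 window 0, 3, 0 and 6, so MMP2 had no peak in either replicate 1 library. MMP12, known for cutting elastin, had 6 regions and 0, 3, 2 and 4 peaks. MMP9 had 5 regions and 1, 4, 2 and 5 peaks. MMP13 had 2 regions and 0, 1, 2 and 1 peaks, so its window was among the emptiest, with 16.6% of all genes at 2 regions or fewer. Genes next to each other in this order differed by at most 3 regions, while replicates of a cell type differed by up to 7 peaks in a window.

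**Figure D2:**
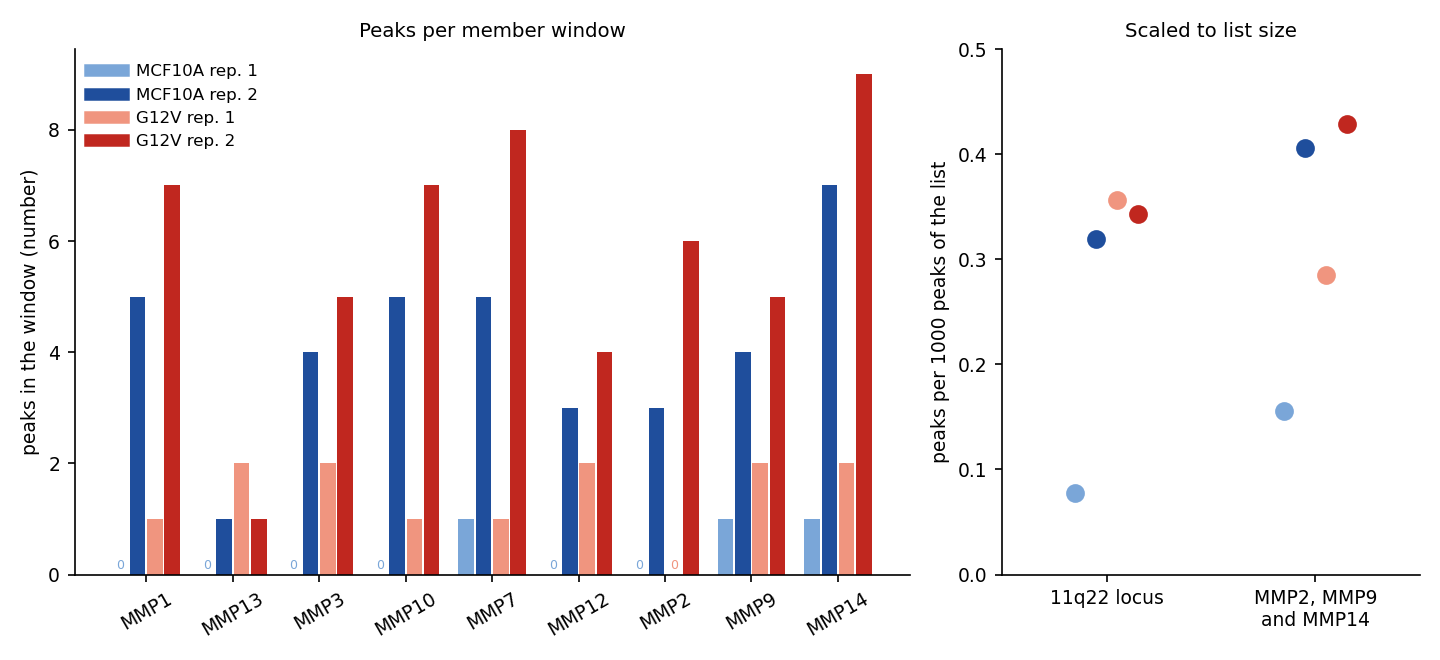
The left panel shows the number of peaks in each member's window as bars from 0, by library, and the right panel shows peaks per 1000 peaks of the list as points for the 11q22 locus and for the MMP2, MMP9 and MMP14 windows. The replicate 2 libraries have the tallest bars in 8 of 9 windows, and after scaling the 11q22 points of 3 libraries lie between 0.319 and 0.356.

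Few regions were called alike in both replicates of a cell type. Of the 43 regions, 21 had a peak in 1 library only (48.8%, against 56.4% of all regions). These were 13 in G12V replicate 2 (34.55% of all regions), 6 in MCF10A replicate 2 (15.79%) and 2 in G12V replicate 1 (3.155%). A further 13 were called in both replicate 2 libraries and in no replicate 1 library (16.26% of all regions). In all, 32 regions were seen only in replicate 2 libraries, and these patterns were also the most frequent over all regions. Peaks of both cell types were present in 19 regions, of which 13 were those called in the replicate 2 libraries alone (16.26% of all regions). Of the others, 3 had peaks in MCF10A replicate 2 and both G12V libraries (6.463% of all regions). A further 2 had peaks in both MCF10A libraries and G12V replicate 2 (5.218%), and 1 in all 4 libraries (8.36%).

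A region was called gained where both G12V libraries and no MCF10A library had a peak, lost in the opposite case, and shared where all 4 had a peak. There were 3 gained regions among the 43, 0 lost and 1 shared, where over all regions 3.20% were gained, 2.14% lost and 8.36% shared. A gained region lay in the windows of 6 of 9 genes (16.0% of all genes have one) and a lost region in 0 of 9 (10.0% of all genes). The 6 genes are not separate cases, because 4 of them (MMP1, MMP3, MMP10 and MMP12) had the same region.

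That region, at chr11:102720140-102720615, was intergenic, 5.8 kb upstream of the MMP3 start, 25.1 kb from MMP12, 51.2 kb from MMP1 and 68.8 kb from MMP10. Its score was 55.7 in G12V replicate 1 (percentile 32.1) and 51.4 in G12V replicate 2 (percentile 24.9), in the lower-ranked part of both lists. It held 1 AP-1 match, near its edge and outside the 150 bp window at the midpoint of the better-ranked peak. It was the only gained region in the 11q22 locus.

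A neighbouring region began 1343 bases further from MMP3, at chr11:102721959-102722753, and was accessible in both cell types. It had a peak in MCF10A replicate 2 (score 64.2, percentile 41.5) and in G12V replicate 2 (score 84.3, percentile 58.3), and an AP-1 match in its 150 bp window. The gained region thus stood beside an interval with a peak in 1 of the 2 parental libraries.

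In the MMP9 window, the gained region at chr20:44539302-44539998 was 97.5 kb upstream of MMP9, near the window's edge. It lay in PLTP, a gene for a phospholipid transfer protein, over coding exons and 796 bp from the PLTP start. Its scores of 89.2 in G12V replicate 1 (percentile 78.4) and 93.9 in G12V replicate 2 (percentile 63.6) were the highest of the 3 gained regions. It held no AP-1 match.

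In the MMP14 window, the gained region at chr14:23356003-23356494 was 50.2 kb downstream of the MMP14 start, in the last exon of REM2, a gene for a small GTPase, over coding sequence and 3′ UTR. Its scores were 56.0 in G12V replicate 1 (percentile 33.6) and 47.5 in G12V replicate 2 (percentile 17.6). It held no AP-1 match and was GC-rich (64.0%), while the region near MMP3 had 35.5% GC. The gained regions at MMP9 and MMP14 thus both lay within other genes. Within 50 kb of the starts, the count of gained regions was 1, the region near MMP3.

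The single shared region, at chr14:23398337-23399258, was the promoter of PRMT5, an arginine methyltransferase gene 92568 bp downstream of MMP14. Its scores were 61.6 in MCF10A replicate 1, 177.2 in MCF10A replicate 2, 51.6 in G12V replicate 1 and 286.8 in G12V replicate 2. The last is at percentile 93.9, the highest rank of any peak at these genes. No region of the 11q22 locus was shared by all 4 libraries.

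**Figure D3:**
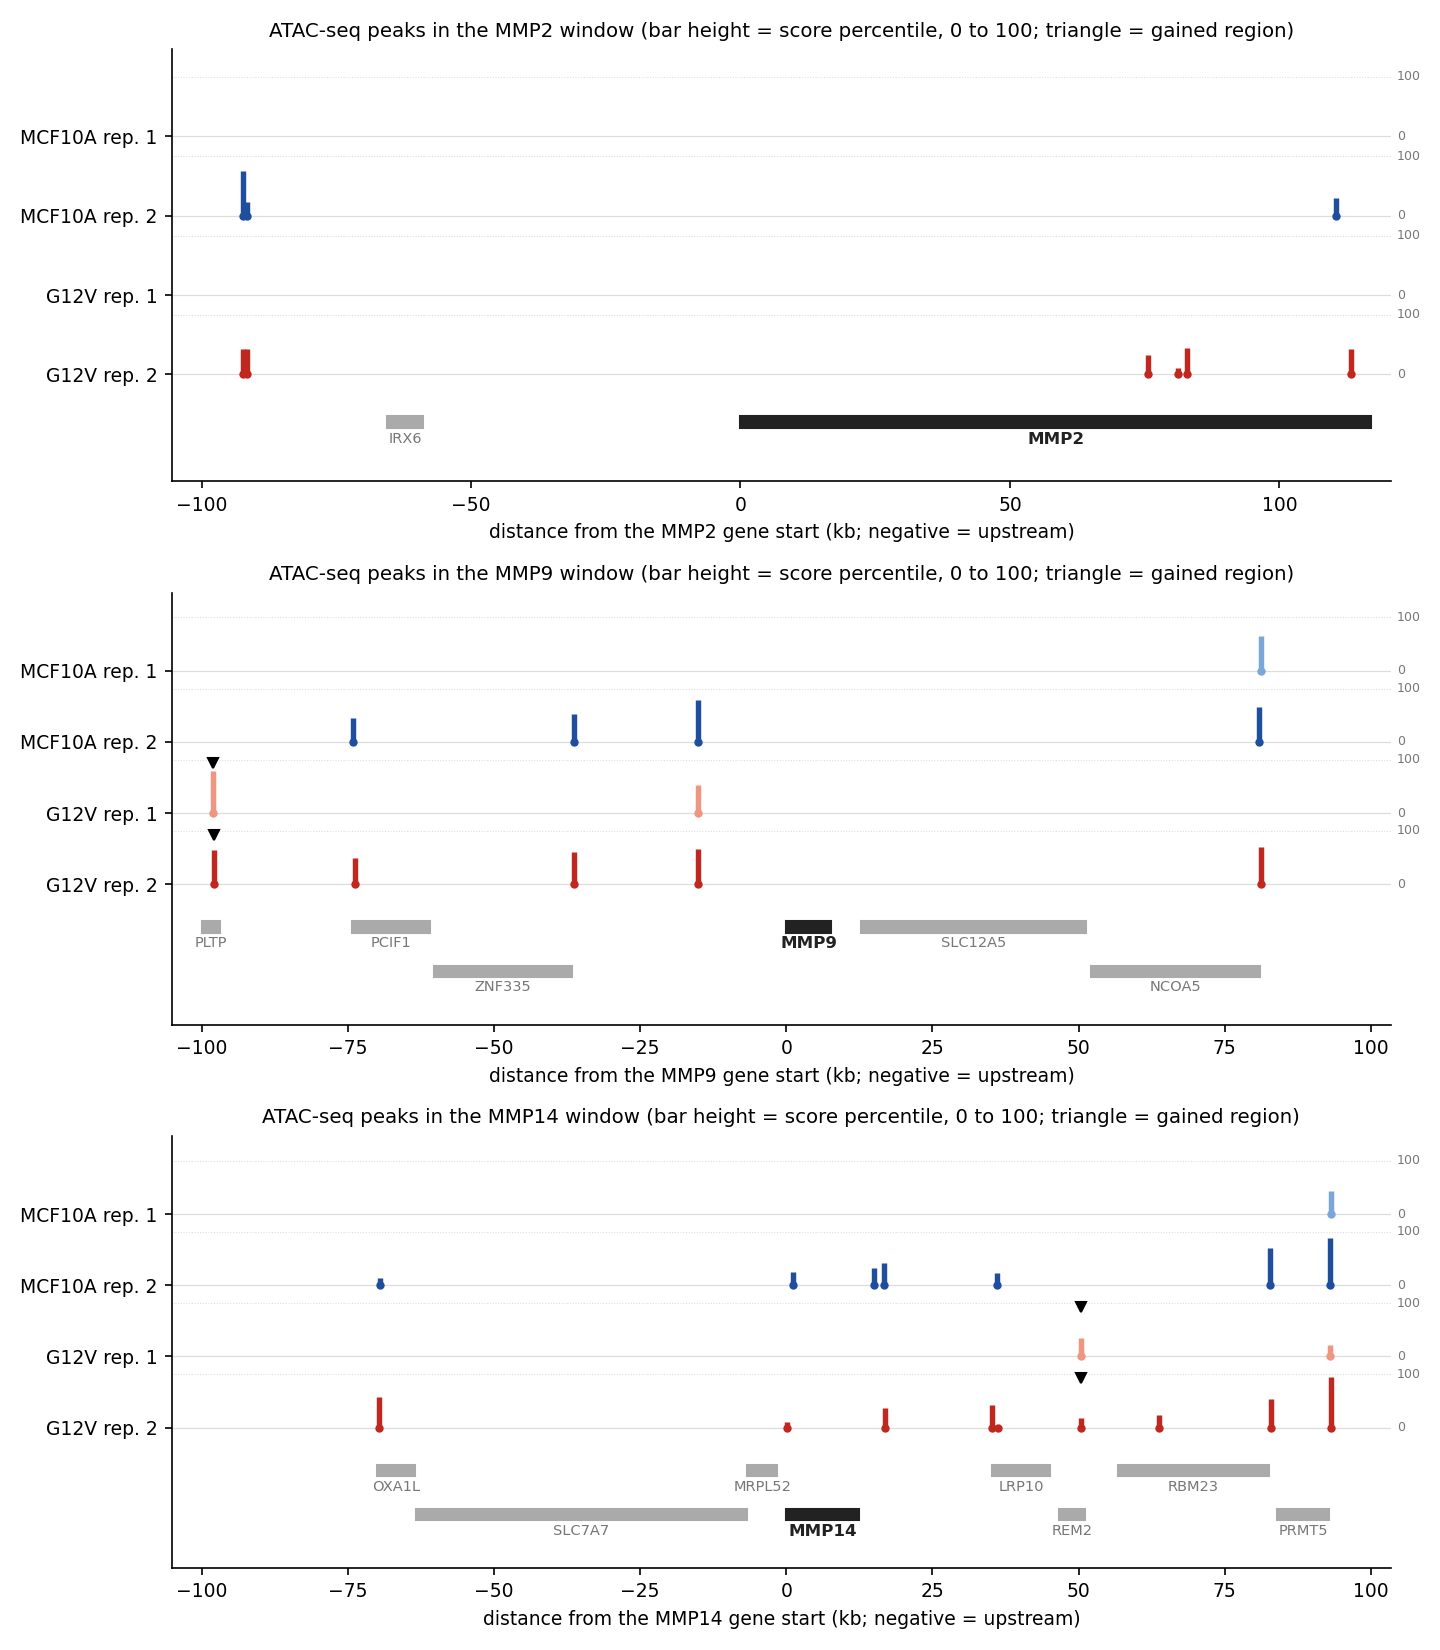
Peaks in the windows of MMP2, MMP9 and MMP14 by library, with distance from each gene start in kb on the horizontal axis, score percentile (0 to 100) as bar height and triangles above gained regions. The gained regions lie 97.5 kb upstream of MMP9 and 50.2 kb downstream of MMP14, and the replicate 1 tracks of MMP2 are empty.

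Distal regions made up 32 of the 43, and 8 of the 11 promoter regions belonged to genes other than the members. Of the 11q22 regions, 8 were intergenic. Regions with peaks in MCF10A replicate 2 and both G12V libraries numbered 3 of the 43 (6.463% of all regions), each distal, intergenic or intronic. Each held an AP-1 match over its whole length, as did 37.5% of all regions. In the 150 bp window only the region upstream of MMP13 had a match. Their widths, 1018 bp at MMP7, 757 bp at MMP13 and 746 bp at MMP9, were above the median of 547 bp over all regions. Their sites are shown because these were the distal regions called in both G12V libraries and in a parental library, and hg19 positions are given for the plus strand with the motif in capitals.
Upstream of MMP7, chr11:102470159-102470189: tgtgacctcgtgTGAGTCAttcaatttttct
Upstream of MMP7, chr11:102470499-102470529: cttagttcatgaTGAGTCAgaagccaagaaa
Upstream of MMP7, chr11:102470757-102470787: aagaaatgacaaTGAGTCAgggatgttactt
Upstream of MMP13, chr11:102867143-102867173: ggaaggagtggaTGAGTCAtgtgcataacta
Upstream of MMP9, chr20:44622297-44622327: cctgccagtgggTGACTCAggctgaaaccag

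The region with 3 of these sites, chr11:102469896-102470913, was 68415 bp upstream of MMP7 in an intron of MMP20, which encodes the tooth enamel protease enamelysin. Its score was 131.0 in MCF10A replicate 2 (percentile 80.5), 84.5 in G12V replicate 1 (percentile 75) and, for the better of its peaks, 61.6 in G12V replicate 2 (percentile 38.8). It ranked highest in a parental library.

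The region upstream of MMP13, chr11:102866826-102867582, was intergenic and 40365 bp from the gene start. It scored 58.1 in MCF10A replicate 2 (percentile 32.8), 51.5 in G12V replicate 1 (percentile 21.7) and 117.7 in G12V replicate 2 (percentile 73.1). Here the highest rank was in a G12V library, while the other G12V library ranked it below the parental one.

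The region upstream of MMP9, chr20:44622020-44622765, was 14782 bp from the gene start and intergenic. It scored 126.5 in MCF10A replicate 2 (percentile 79.3), 65.7 in G12V replicate 1 (percentile 53.6) and 99.1 in G12V replicate 2 (percentile 66.1). It held 2 AP-1 matches, of which 1 is printed because the other starts at the first base of the region. It was the nearest region to MMP9 in any library.

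At MMP2, 3 intronic regions upstream of its main group of transcript starts were seen in G12V replicate 2 only. They lay 13157, 7718 and 5994 bp before the start at position 55512742 of chromosome 16, with scores of 56.7, 44.3 and 67.2 (percentiles 32.9, 11 and 44.8). The nearest held an AP-1 match. Further inside the gene, MCF10A replicate 2 had a peak at chr16:55533780-55534331 with a score of 55.8 (percentile 29.1), and G12V replicate 2 had a separate peak over a coding exon at chr16:55536627-55537272 with a score of 65.2 (percentile 43.1). Regions 91298 and 92091 bp upstream of the first annotated start had peaks in both replicate 2 libraries, and each held an AP-1 match.

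Over all 42 regions in the windows, 6 held an AP-1 match in the 150 bp window at the midpoint of the best-ranked peak (14.3%, 95% Wilson interval 6.72 to 27.8), against 15.9% of all regions. The reversed sequence, a control for base composition, was in 2.38% of the members' regions and 3.10% of all regions. In the 11q22 locus the share was 4 of 20 (20%, interval 8.07 to 41.6). Searched over their whole length, 15 of 42 regions held a match (35.7%, against 37.5% of all regions), and 9 of 20 at 11q22. The interval for the members' regions thus included the share over all regions. These intervals cover counting error only, and regions of shared windows are counted once.

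Among the 43 regions, those called in MCF10A replicate 2 held a match in 12 of 25 cases (48%), those in G12V replicate 1 in 4 of 9 (44.4%), those in G12V replicate 2 in 12 of 35 (34.3%) and those in MCF10A replicate 1 in 0 of 3, over their whole length. The shares over all regions of each library lay between 35.3% and 40.3%. The libraries share many of these regions, so the shares were not compared by a test. The 11q22 regions were poorer in GC (median 39.6%) than those of the MMP2, MMP9 and MMP14 windows (median 55.1%), with a median of 46.6% over all regions.

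By their median, the peaks at these genes ranked somewhat below the middle of each list. The median percentile was 43.1 in MCF10A replicate 1 (3 peaks, 32.8 to 65.2), 41.5 in MCF10A replicate 2 (25 peaks, 13.3 to 89.2), 41.1 in G12V replicate 1 (9 peaks, 21.7 to 78.4) and 42.9 in G12V replicate 2 (36 peaks, 0.1 to 93.9). The medians of the 4 libraries lay within 2 percentile points, and only the PRMT5 promoter passed the 90th percentile.

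**Figure D4:**
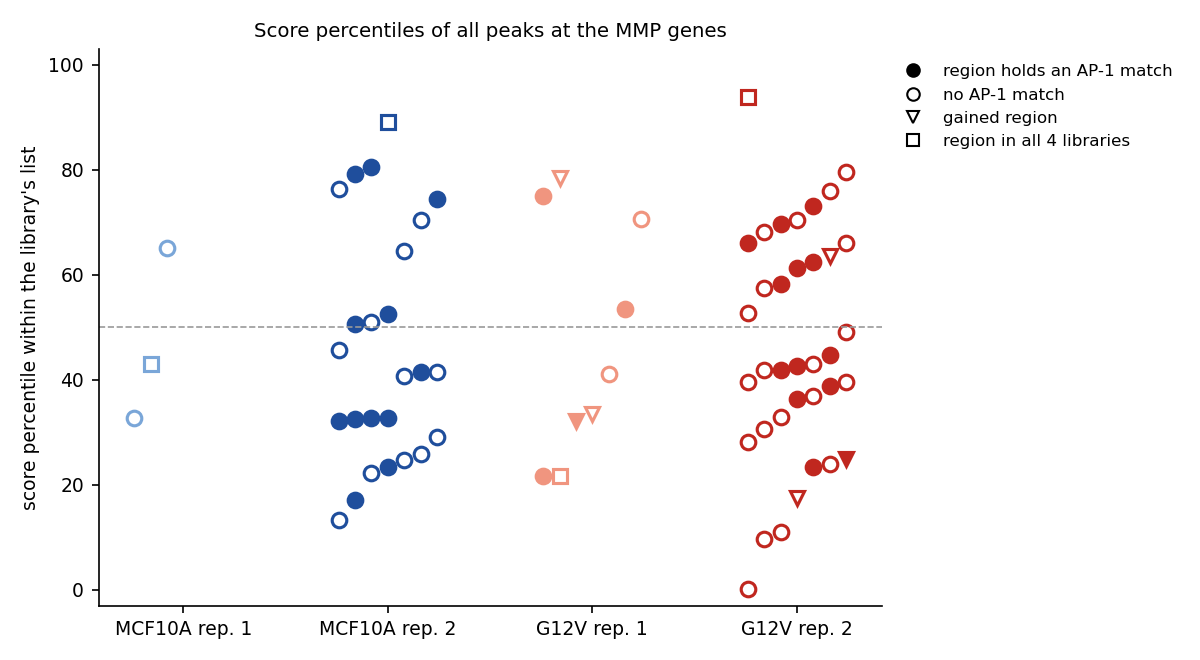
Score percentile within its own list of every peak at the MMP genes and the 11q22 locus, by library, with filled symbols for regions that hold an AP-1 match over their whole length, triangles for gained regions and squares for the region in all 4 libraries. Medians lie between 41.1 and 43.1, and filled and open symbols overlap over most of the range.

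Of 14 other MMP family genes, MMP16, a membrane-type enzyme, had a promoter peak in all 4 libraries and MMP8 in both replicate 2 libraries, and 12 had none in any library. Gained regions lay in the windows of MMP17, MMP25 and MMP26, and lost regions in those of MMP16 and MMP25, so 3 of 14 genes had a gained and 2 of 14 a lost region, beside 16.0% and 10.0% of all protein-coding genes.

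Of the 5 inhibitor genes (TIMP1 to TIMP4 and RECK), TIMP1 had a promoter peak in all 4 libraries and 1 gained region in its window. TIMP2, whose product also helps MMP14 to activate the MMP2 precursor, had 2 gained regions and no promoter peak. TIMP3 had a promoter peak in MCF10A replicate 1 only. A gained region thus lay in the windows of 2 of the 5 genes and a lost region in 0 of 5, beside 16.0% and 10.0% of all protein-coding genes.

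Among 8 genes of MMP activation and induction, PLAU (urokinase) had promoter peaks in both replicate 2 libraries and 1 gained and 1 lost region in its window. SERPINE2 had promoter peaks in MCF10A replicate 2 and both G12V libraries, PLAUR, the urokinase receptor, in G12V replicate 1 and PLAT in G12V replicate 2. With every annotated transcript start counted, PLAUR had a promoter peak in all 4 libraries, PLAT in MCF10A replicate 2 and both G12V libraries, FURIN in MCF10A replicate 1, and BSG and PLG in MCF10A replicate 2. FURIN, a convertase that activates MMP14, had 2 gained regions, BSG, an inducer of MMPs in neighbouring cells, had 1, and the PLG window had a lost region. Of the 8 genes, 3 thus had a gained and 2 a lost region, beside 16.0% and 10.0% of all protein-coding genes.

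The labelled cell type was checked on promoter peaks of marker genes. Of 8 mammary epithelial markers, ITGB4 had a peak in both MCF10A libraries and no G12V library, and KRT17 had a peak in MCF10A replicate 1. KRT5, KRT14, KRT18, CDH1 and EPCAM had none at the gene start in any library. Of 5 fibroblast or mesenchymal markers, VIM had a peak in MCF10A replicate 2 and both G12V libraries and COL1A1 in MCF10A replicate 2. With every annotated transcript start counted, VIM had a promoter peak in all 4 libraries, COL1A1 in MCF10A replicate 2 and both G12V libraries, EPCAM in MCF10A replicate 2 and KRT18 in G12V replicate 2. Of 4 leukocyte markers, CD68 had a peak in G12V replicate 2, while PTPRC and CD3E had none at the gene start and PTPRC had a peak at another start in G12V replicate 2. At the gene start, the promoters of 5 of 8 epithelial markers thus had no peak, as did those of 6 of the 9 MMP members. Counted at every start, KRT5, KRT14 and CDH1 still had none, while MMP1 had a peak in G12V replicate 2. Over all protein-coding genes, the share with a promoter peak at the gene start ran from 20.4% to 43.8% by library. HRAS itself had no peak at its annotated gene start in any library, and 1 of the 10 regions in its window was gained. At other annotated HRAS transcript starts, both MCF10A libraries and neither G12V library had a peak. The introduced HRAS copy cannot be told apart from the endogenous gene in these lists.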

How the data were processed

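ATAC-seq peak lists of 2 MCF10A and 2 G12V libraries were used. According to the study's methods, the authors aligned reads to hg19 with bowtie (0.12.9), shifted read starts to the centre of the transposase cut and ran MACS (1.4.2; tag size 51, shift size 75, local window 25000 bp, p threshold 1e-04). The deposited value of each peak is the MACS score. Read depth is not in the lists, so list length stands in for it, and a locus below threshold in a short list appears as no peak. The lists carry no summits, and scores were compared only as percentiles within a list.

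Peaks on the 22 autosomes and X (12888, 34463, 14042 and 46673 of 12902, 34484, 14057 and 46698 listed) were merged into regions where they shared 1 bp or more. Genes were those of GENCODE release 44, lifted to GRCh37. The AP-1 sequences TGACTCA and TGAGTCA were searched without mismatch on both strands, and the reversed sequences ACTCAGT and ACTGAGT served as control. Sequences were read from the GRCh37 genome. Peak numbers were compared by exact two-sided permutation tests, with 2 libraries per cell type. The study's methods call the replicates biological, while the labels do not say how they were grown apart. Results were recomputed with the better-scoring 50% of peaks, the 12888 best peaks per library, an overlap of 50%, merging within 200 bp, windows of 50 kb, promoters of 2000 bp on each side, every transcript start, peaks per 1000, a peak in either replicate, leaving out each library, the replicate number as a block, 1 mismatch and whole regions. Named were the 9 genes, every gained, lost or shared region, every promoter region, and list genes with such a region. The regions with 3 libraries' support and those inside MMP1 and MMP2 were singled out after their values were seen. The members and gene lists were chosen with earlier results of these data known. Results for some list genes and 1 sequence are not reported here. The scripts were tested on simulated peak lists. Python 3.11.15, numpy 2.4.6, scipy 1.17.1 and matplotlib 3.10.9 were used.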

Additional observations from a re-analysis of the deposited data

How the results depend on the processing

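The 3 differences in peak number between G12V and MCF10A kept their direction under the alternatives run, except as follows. Leaving out 1 library gave -6 to 22 for the 9 windows, -1 to 10 for the 11q22 locus and -4 to 12 for the MMP2, MMP9 and MMP14 windows. The negative values, without MCF10A replicate 1 and without G12V replicate 2, were -3 and -6, -0.5 and -1, and -2 and -4. With equal lists the MMP2, MMP9 and MMP14 difference was -1. The difference in members with a promoter peak was -0.5 with the better-scoring 50% and with promoters of 2000 bp on each side. It was 0 with every transcript start, and -1 to 1 with 1 library left out. With equal lists no member had a promoter peak in any library.

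Gained regions numbered 1 with the better-scoring 50%, 1 with equal lists, 1 within 50 kb, 17 with a peak in either replicate and 3 to 16 with 1 library left out (6 without MCF10A replicate 2, 16 without G12V replicate 1). Lost regions numbered 1 with equal lists, 6 with either replicate and 0 to 6 with 1 library left out (6 without MCF10A replicate 1, 2 without G12V replicate 2). With either replicate, gained regions had peaks in G12V replicate 2 alone (34.55% of all regions), G12V replicate 1 alone (3.155%) or both (3.204%). Lost ones had peaks in MCF10A replicate 2 alone (15.79%), MCF10A replicate 1 alone (2.881%) or both (2.14%). Shares over all regions are not given for the other settings or the pairings below, so those counts show nothing particular to these genes. The share with AP-1 was 35.7% over whole regions, 45.2% with 1 mismatch (48.6% of all regions), 22.2% (4 of 18) with the better-scoring 50%, 7.69% (1 of 13) with equal lists, and 6.90% (without G12V replicate 2) to 16.2% with 1 library left out. The cause of these changes was not tested.

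With the replicate number as a block, the differences were 8, 4.5, 4 and, for promoters, 0 (exact sign-flip test over 2 pairs, p = 0.5, 0.5, 0.5 and 1, where 0.5 is the smallest possible), and gained and lost regions numbered 7 and 2 in the replicate 1 pair and 16 and 6 in the replicate 2 pair. The replicate numbers were not shown to pair the samples (r of replicate deviations -0.113 over all regions). This r cannot settle whether they were paired, and replicate 2 had the longer list in both cell types. In the crossed pairing, added after the data had been seen, gained and lost counts were 4 and 21 for G12V replicate 1 with MCF10A replicate 2, and 32 and 0 for the other pair.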
